A study of Mus musculus with 6 samples.

Results

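The catenins and cadherins of adherens junctions were described in mouse skin wounds in which β-catenin had been altered after injury. The set comprised 10 genes, Ctnnb1 (β-catenin), Jup (plakoglobin), Ctnna1, Ctnnal1, Ctnnd1, Cdh1, Cdh2, Cdh3, Cdh5 and Cdh11, and every probe that the platform annotation assigned to them. Of their 26 probes, 15 were detected (detection p-value under 0.01) on at least 2 of the 6 arrays and were analysed, out of 17410 such probes among 45281 on the array. These 15 probes represented 9 genes, because neither probe of Cdh2 met the criterion.

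RNA came from full thickness wounds of the back, harvested 8 days after injury, from mice on a C57/BL6 background. In the adenovirus model, mice of 2 months with a floxed exon 3 of Ctnnb1 were given an adenovirus carrying Cre, whose recombination leaves a stabilized β-catenin, or a control adenovirus with green fluorescent protein (GFP). Each of these groups had 1 array. In the tamoxifen model, all mice carried floxed exons 2-6 of Ctnnb1 and received tamoxifen. The 2 control arrays came from mice of 4 months without Cre, called wild type in the labels, and the 2 knockdown arrays from mice of 5 months that also carried Cre-Esr1, a tamoxifen-inducible Cre. Age and genotype thus cannot be told apart in this model. The promoter that drives Cre-Esr1 and the cells reached by the adenovirus are not given in the sources used here.

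Classical cadherins join neighbouring cells through their extracellular domains and bind catenins with their cytoplasmic tails. β-catenin or its close relative plakoglobin binds the tail and recruits α-catenin, which links the junction to actin, whereas the catenin encoded by Ctnnd1 binds nearer the membrane and keeps cadherins at the cell surface. β-catenin that is not held at junctions is degraded by a destruction complex unless a Wnt signal protects it, and then acts in the nucleus with TCF/LEF factors. In skin, E-cadherin (Cdh1) and P-cadherin (Cdh3) belong to keratinocytes, VE-cadherin (Cdh5) to endothelium, and N-cadherin (Cdh2) and cadherin-11 (Cdh11) mainly to mesenchymal cells.

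Between 15883 and 16681 probes were detected per array, and the GFP array was the dimmest, with a mean intensity of 544 against 649 to 715 on the others. Its median intensity over all probes was not low, at 140 against 129 to 141. Levels are given as log2 of the background-corrected intensity after quantile normalization, so a value can be compared between arrays for 1 probe but not between probes. Replicates are called biological in the labels, and 2 arrays per tamoxifen group limit the precision.

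Sequence around the start of 3 catenin genes is shown, for the manipulated gene and for Jup and Ctnnd1, the catenins with the largest knockdown differences among those with a window. The windows, from RefSeq on GRCm38.p6, lie around an annotated start and are written 5′ to 3′ on the strand of the gene, with CCAAT on either strand in capitals.
Ctnnb1, chr9:120933150-120933449, plus strand: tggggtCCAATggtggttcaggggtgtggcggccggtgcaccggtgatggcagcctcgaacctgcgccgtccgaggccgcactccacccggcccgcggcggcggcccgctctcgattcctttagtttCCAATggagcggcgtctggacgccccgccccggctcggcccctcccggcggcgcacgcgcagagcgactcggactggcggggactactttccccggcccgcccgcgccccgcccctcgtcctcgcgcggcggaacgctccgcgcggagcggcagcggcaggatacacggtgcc
Jup, chr11:100397741-100398040, minus strand: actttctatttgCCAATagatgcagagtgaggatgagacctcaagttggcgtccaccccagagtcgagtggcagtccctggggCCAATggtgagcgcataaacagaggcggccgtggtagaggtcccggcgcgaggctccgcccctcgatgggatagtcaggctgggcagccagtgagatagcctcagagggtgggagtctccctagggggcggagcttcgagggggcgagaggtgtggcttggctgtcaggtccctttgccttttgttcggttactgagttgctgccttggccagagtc
Ctnnd1, chr2:84658928-84659227, minus strand: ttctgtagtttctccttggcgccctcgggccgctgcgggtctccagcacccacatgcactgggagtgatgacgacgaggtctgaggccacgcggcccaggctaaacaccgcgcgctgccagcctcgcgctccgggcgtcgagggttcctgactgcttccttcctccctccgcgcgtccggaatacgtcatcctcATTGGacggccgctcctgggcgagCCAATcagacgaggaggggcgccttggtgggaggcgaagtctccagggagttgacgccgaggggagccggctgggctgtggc
Each of the 3 windows held 2 CCAAT pentamers, a motif chosen after these sequences were seen and present in 37.4% of all 32851 windows of the table. Of the other 3 windows searched, a further one of Ctnnd1 held 2 and a further one of Ctnnb1 and that of Ctnnal1 held 0. Ctnna1 and the cadherins were not among the 6 windows searched. None of the 6 held a TCF/LEF motif, searched on both strands as CTTTG followed by A or T at each of the next 2 positions and present in 16.9% of all windows. None of the 6 held the E-box CAGGTG, which repressors of Cdh1 bind and which 20.2% of all windows contained. The motifs found did not overlap. A match or its absence describes these letters in these windows alone.

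The manipulated gene, Ctnnb1, had 4 detected probes, and its brightest probe overlapped between control and knockdown arrays. This probe (ILMN_2994460, probe 1) read 11.56 with GFP, 11.49 with stabilized β-catenin, 11.77 and 12.07 on the controls and 11.73 and 11.84 on the knockdown arrays. The knockdown value 11.84 lay between both controls, so the groups overlapped, and the difference was -0.13 ± 0.17 (SE, n = 2 and 2; limma, adjusted p = 0.819). Probe 2 (ILMN_2696575) read 10.12, 10.09, 10.41, 10.67, 10.30 and 10.30 in the same order of arrays. Here both knockdown arrays lay below both controls, by at least 0.11, and the difference was -0.24 ± 0.16 (limma, adjusted p = 0.658). On both probes the adenovirus arrays were lower than all 4 tamoxifen arrays, a contrast in which model, age and floxed exon cannot be told apart.

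The other Ctnnb1 probes were dimmer, and after quantile normalization both were highest on the GFP array. Probe 3 (ILMN_2616556) read 8.42 with GFP, 7.73 with stabilized β-catenin, 7.55 and 7.37 on the controls and 7.65 and 7.36 on the knockdown arrays. Probe 4 (ILMN_1255869) read 7.08, 6.27, 6.22, 6.48, 6.87 and 6.19. On probe 3 both adenovirus arrays lay above all tamoxifen arrays, and on probe 4 GFP did so alone. Before normalization the probe 4 intensity was 213 with GFP and 234 in knockdown replicate 1. In the knockdown these probes differed by 0.05 ± 0.17 and 0.18 ± 0.26 (limma, adjusted p = 0.948 and 0.849), with overlapping groups. In the stabilized array they stood 0.69 and 0.81 below GFP (1.62-fold and 1.75-fold), whereas probes 1 and 2 differed by only -0.07 and -0.03. The 4 probes of the gene thus disagreed in the adenovirus pair. As deposited, before normalization, probe 3 had intensities of 354 with GFP and 349 with stabilized β-catenin, and probe 1 of 2344 and 3417. The position of these probes relative to the floxed exons is not analysed here, so they do not check the recombination.

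Jup had the clearest separation between knockdown and control arrays among the 15 probes, although it did not pass the test over all probes. Plakoglobin takes the place of β-catenin at adherens junctions and also anchors desmosomal cadherins. Its probe read 6.73 and 6.75 in the controls, 6.18 and 6.15 in the knockdown, 6.75 with GFP and 7.08 with stabilized β-catenin. Both knockdown arrays were below every other array, by 0.55 from the nearest control, while replicates differed by 0.02 and 0.04. The knockdown stood 1.49-fold lower, at -0.58 ± 0.14 (SE, n = 2 and 2; limma, unadjusted p = 0.0073, adjusted p = 0.244). The stabilized array was 1.26-fold higher than GFP (0.33). The probe was dim, with intensities of 219 and 207 in the controls, 183 and 175 in the knockdown, 194 with GFP and 259 with stabilized β-catenin. Without background correction the difference was -0.26 ± 0.10 (limma, adjusted p = 0.434).

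**Figure D1:**
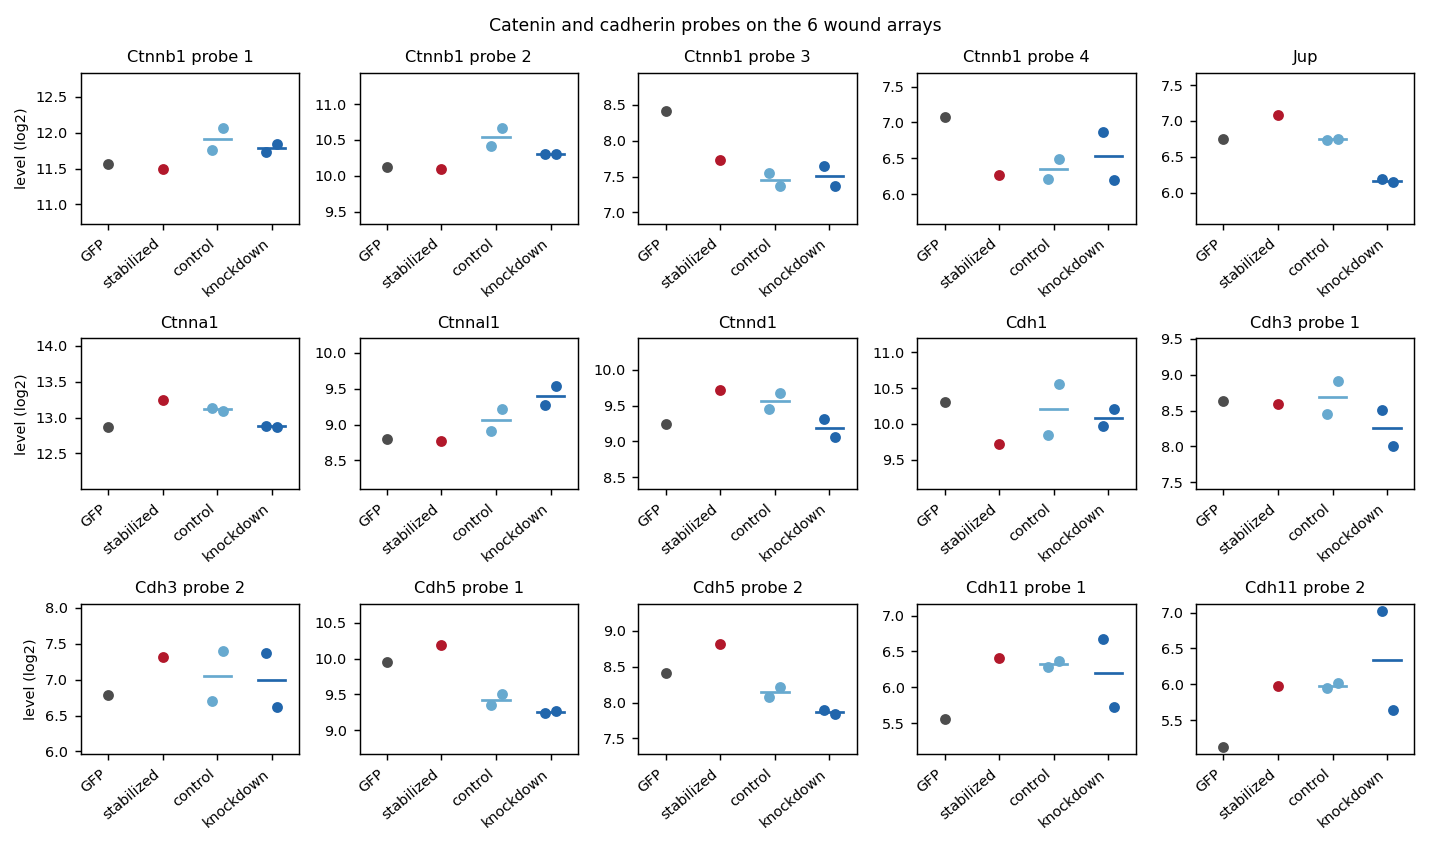
Level (log2, background-corrected and quantile-normalized; y axes differ in position but all span the same range) of each of the 15 detected probes on the 6 arrays, with 1 point per array and a bar at the mean of each tamoxifen group. Jup in both knockdown arrays (6.18 and 6.15) lies below all other arrays, whereas the points of Cdh1, Cdh3 and Cdh11 overlap between control and knockdown.

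α-catenin and the catenin of Ctnnd1, like Jup, stood lower in the knockdown without overlap and higher in the stabilized array than in GFP, with smaller differences in the knockdown. Ctnna1 read 13.13 and 13.10 in control and 12.88 and 12.87 in knockdown arrays, which did not overlap. Its difference was -0.24 ± 0.14 (limma, adjusted p = 0.608). On the adenovirus arrays Ctnna1 was at 12.87 with GFP and 13.24 with stabilized β-catenin, so that GFP was as low as the knockdown and the difference between the pair was 0.38 (1.30-fold). Ctnnd1 read 9.46 and 9.67 in the controls, 9.31 and 9.06 in the knockdown, 9.24 with GFP and 9.72 with stabilized β-catenin. The knockdown was lower without overlap, at -0.38 ± 0.17 (limma, adjusted p = 0.528), and the stabilized array was 1.39-fold above GFP. This Ctnnd1 probe was 1 of 4, and the other 3 were not detected on any array.

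Ctnnal1, an α-catenin-like protein, was the 1 probe of the set that stood higher in the knockdown without overlap. Control arrays read 8.92 and 9.22 and knockdown arrays 9.27 and 9.53, which differed by 0.33 ± 0.18 (limma, adjusted p = 0.594). The gap between the groups was 0.05, smaller than the spread between replicates. GFP and stabilized arrays were at 8.80 and 8.77, below all tamoxifen arrays. The other 2 probes of Ctnnal1 were not detected on any array.

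The epithelial cadherins overlapped between the tamoxifen groups. Cdh1 read 9.85 and 10.56 in control and 9.97 and 10.20 in knockdown arrays, both within the range of the controls, with a difference of -0.12 ± 0.27 (limma, adjusted p = 0.909). Without control replicate 1 this difference was -0.47, and without control replicate 2 it was 0.24. The stabilized array had the lowest Cdh1 of the 6, 9.72 against 10.30 with GFP (1.49-fold lower). That direction turned with scaling to a common median (0.02), and the intensity before normalization was 1.06 times that of GFP. A second Cdh1 probe was not detected on any array.

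Cdh3 was read by 4 probes, of which 2 passed the detection criterion. Probe 1 (ILMN_3156246) read 8.46 and 8.91 in control and 8.51 and 8.0 in knockdown arrays (-0.43 ± 0.25; limma, adjusted p = 0.613), with 8.64 for GFP and 8.59 for stabilized β-catenin. Probe 2 (ILMN_1222853) read 6.70 and 7.40 in the controls, 7.38 and 6.62 in the knockdown (-0.05 ± 0.35; adjusted p = 0.973), 6.78 with GFP and 7.31 with stabilized β-catenin. Replicates differed by 0.46 to 0.76 on these probes, more than the group means did. Of the probes that did not pass, 1 was detected on control replicate 2 alone and 1 on no array. Cdh1 and Cdh3 are neighbours among the protein-coding genes of GRCm38.p6, as are Cdh5 and Cdh11.

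VE-cadherin, read by 2 probes that gave the same order of arrays for the highest values, stood highest in the stabilized wound. Cdh5 probe 1 (ILMN_2771550) read 9.35 and 9.51 in the controls, 9.24 and 9.26 in the knockdown, 9.95 with GFP and 10.19 with stabilized β-catenin. Cdh5 probe 2 (ILMN_2866951) read 8.08 and 8.22, 7.89 and 7.84, 8.41 and 8.82. On both probes every knockdown array was below every control and both adenovirus arrays were above all 4 tamoxifen arrays. The knockdown differences were -0.17 ± 0.14 and -0.28 ± 0.14 (limma, adjusted p = 0.725 and 0.57). Stabilized β-catenin was 1.18-fold and 1.33-fold above GFP.

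Cdh11, a mesenchymal cadherin, was near the limit of detection. Probe 1 (ILMN_2737073) was detected on 4 arrays, at 6.40 with stabilized β-catenin, 6.28 and 6.36 in the controls and 6.67 in knockdown replicate 1. It was not detected with GFP (5.56) or in knockdown replicate 2 (5.72). The stabilized array was at least 1.19-fold above GFP, with the lowest detected signal of the GFP array as the bound. Probe 2 (ILMN_1240529) was detected on 3 arrays, which were the stabilized array, control replicate 2 and knockdown replicate 1, and no fold is given. The knockdown replicates were 0.95 and 1.38 apart on these probes, and the group differences were -0.13 ± 0.32 and 0.35 ± 0.45 (limma, adjusted p = 0.921 and 0.818). Another Cdh11 probe and both Cdh2 probes were not detected on any array, the brighter Cdh2 probe with detection p-values from 0.011 to 0.046.

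Across the 15 probes, 0 passed limma in the knockdown comparison after Benjamini-Hochberg adjustment over all 17410 probes, as was the case for 0% of all probes. At an unadjusted p under 0.05, 1 was lower, Jup, against 4.88% of all probes, and 0 were higher, against 5.78% (10.7% either way). The knockdown mean was lower for 11 of 15 probes and for 49.4% of all. Knockdown arrays were below both controls without overlap for 6 of 15 probes (1 of Ctnnb1, Jup, Ctnna1, Ctnnd1 and both of Cdh5), and this held for 20.1% of all probes. They were above both for 1 of 15, Ctnnal1, against 22.7% of all probes. The median difference was -0.13 over the 15 probes and 0.0039 over all. Of the 15, 5 were both lower without overlap in the knockdown and higher in the stabilized array than in GFP, namely Jup, Ctnna1, Ctnnd1 and both of Cdh5, a pattern singled out after its values were seen. It applied to 12.3% of all probes. The reverse applied to Ctnnal1 and to 12% of all probes. These counts are descriptions: probes of 1 gene share their target, and no test was made over the set.

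**Figure D2:**
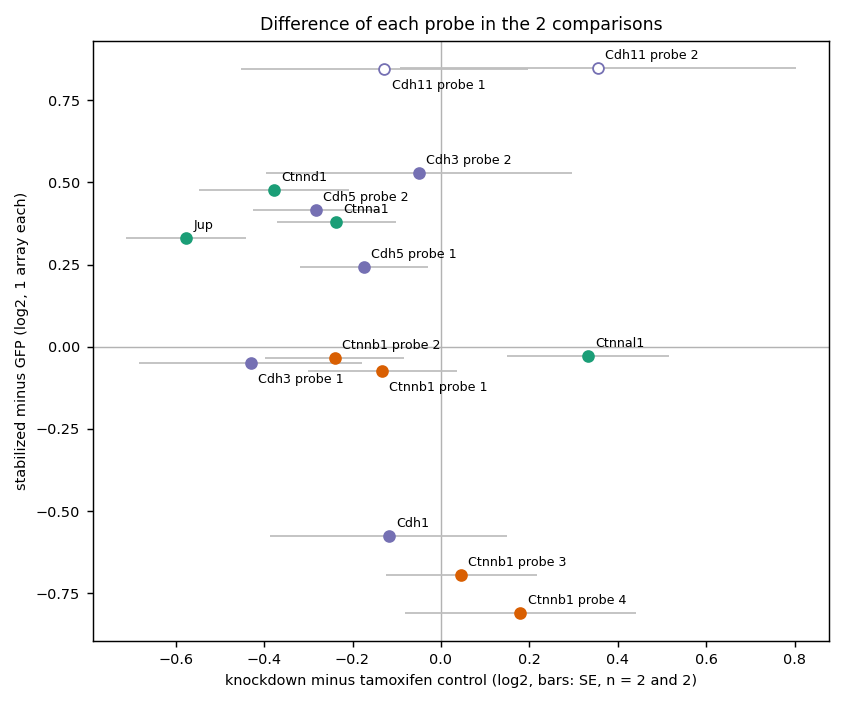
Difference in the knockdown (x axis, log2, with SE, 2 arrays per group) against the difference between the stabilized and GFP arrays (y axis, log2, 1 array each) for the 15 detected probes; Ctnnb1 is orange, the other catenins green and the cadherins purple, with open circles for Cdh11, not detected on the GFP array. Jup, Ctnna1, Ctnnd1 and both Cdh5 probes lie at the upper left, as do Cdh3 probe 2 and Cdh11 probe 1, whose groups overlapped in the knockdown. Cdh1 lies at the bottom with 2 of the 4 Ctnnb1 probes.

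In the adenovirus pair, 0 of 15 probes were at least 2-fold apart, against 8.36% of all probes. Of the 15, 8 were higher and 7 lower in the stabilized array, against 55.1% and 44.8% of all probes. The split depended on how the arrays were scaled. In an alternative, each array was scaled to a common median in place of quantile normalization. That median was taken over all 45281 probes, of which 17410 passed the detection criterion. With it, the median difference of these 17410 probes moved from 0.05 to 0.57. Of the 15 probes 13 were higher and 2 lower, with 3 of them at least 2-fold. The share of all probes that were higher went from 55.1% to 87.1%. Values relative to the shifted median follow. Ctnnd1 stood 0.53 above the median under that scaling, Cdh5 probe 2 0.45, Jup 0.20 and Ctnna1 0.20, whereas Cdh1 stood at -0.56 and the dimmer Ctnnb1 probes at -0.67 and -0.95. Without regard to that median, Cdh1 was at 0.02 under median scaling, so its direction in the pair turned, as did those of Ctnnal1, Cdh3 probe 1 and Ctnnb1 probes 1 and 2.

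**Figure D3:**
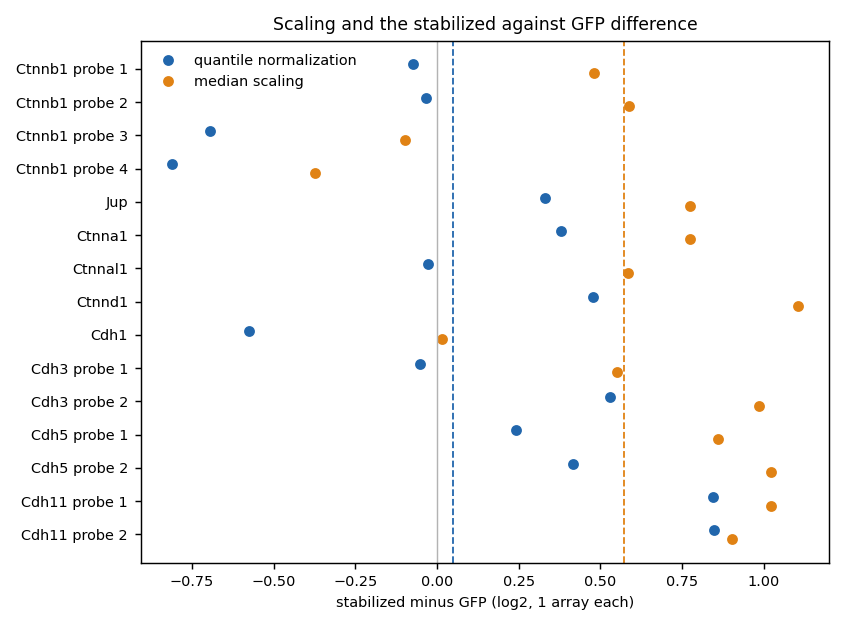
Stabilized minus GFP (log2, 1 array each) for the 15 detected probes after quantile normalization (blue) and after scaling to a common median (orange), with dashed lines at the median of all 17410 probes (0.05 and 0.57). Probes shift to the right together. Ctnnb1 probes 3 and 4 and Cdh1 remain well left of each dashed line, and Ctnnb1 probe 1 and Cdh3 probe 1 slightly left of each.

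A line was also fitted through the 6 arrays after giving knockdown the value -1, GFP and tamoxifen controls 0 and stabilized 1, with model as a term. It passed 0 of 15 probes (limma; 0% of all probes). The slope per step was 0.49 ± 0.12 for Jup (adjusted p = 0.282), 0.41 ± 0.13 for Ctnnd1 (0.406), 0.33 ± 0.12 for Cdh5 probe 2 (0.438) and 0.28 ± 0.11 for Ctnna1 (0.466). These 4 had positive slopes at an unadjusted p under 0.05, against 5.49% of all probes, and 0 had negative ones, against 4.82%. The slope of the brightest Ctnnb1 probe was 0.06 ± 0.14. The knockdown arrays enter both this fit and the comparison above, so the slopes are not separate evidence.

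Desmosome genes, which encode the junction that shares plakoglobin with adherens junctions, stood lower in the knockdown. Each gene of this and the following lists is represented by its brightest detected probe. The lists were chosen with earlier results of these data known, so their counts beside those of all genes are descriptions. Of 12 listed desmosome genes 8 were measured, of which 7 were lower and 1 higher, with a median of -0.50 against 0.02 over all 10266 genes, 46.7% of which were lower. None passed after adjustment over all probes (limma, smallest adjusted p = 0.176), and 4 had an unadjusted p under 0.05, all lower, against 4.27% of all genes lower and 6.11% higher. Dsg1b, a desmosomal cadherin of the upper epidermis, read 8.70 and 8.22 in control and 7.50 and 7.40 in knockdown arrays (-1.01 ± 0.20; adjusted p = 0.199). Dsc3, a desmocollin of basal keratinocytes, was at -0.95 ± 0.15 (0.176), Dsc1 at -0.68 ± 0.14 (0.209) and the plakophilin Pkp3 at -0.44 ± 0.14 (0.371). In the adenovirus pair the list was split, 4 higher and 4 lower (54.3% of all genes were higher), with Dsg1b 0.46 above and Dsg2 0.92 below GFP. Among those higher, Pkp2 and Perp were detected on neither adenovirus array, and Dsc3 was only 0.06 above GFP.

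Partners of the adherens junction were lower in 15 of 18 measured cases in the knockdown (25 listed), with a median of -0.21, 0 past the test and 3 at an unadjusted p under 0.05, all lower. Over all genes, 46.7% were lower and 4.27% were lower at that p. These 3 were the nectin Nectin1 (-0.57 ± 0.19; limma, adjusted p = 0.388), the actin crosslinker Actn1 (-0.56 ± 0.15; 0.291) and the actin-associated Pdlim7 (-0.49 ± 0.17; 0.409). The scaffold Tjp1 was at -0.28 ± 0.17 (0.639). Actn1 read 12.18 and 12.31 in the controls against 11.74 and 11.64 in the knockdown, with 12.24 for GFP and 12.44 for stabilized β-catenin. In the pair 11 were higher and 7 lower (median 0.14), with Nectin3 0.41 above and Pdlim7 0.45 below GFP.

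Other cadherins were mostly not detected, with 3 of 18 listed genes measured. All 3 were higher in the knockdown (median 0.96), 0 passed the test and 2 had an unadjusted p under 0.05. Over all genes, 46.7% were lower and 6.11% were higher at that p. Cdh15, the M-cadherin of muscle progenitors, read 5.60 and 6.05 in the controls, the first not detected, and 7.08 and 7.37 in the knockdown (1.40 ± 0.21; limma, adjusted p = 0.176). It was detected with GFP (6.60) and not with stabilized β-catenin, at least 1.56-fold lower. Cdh4, or R-cadherin, read 6.16 and 6.49 against 7.29 and 7.29 (0.96 ± 0.17; 0.179) and was detected on neither adenovirus array. Cdh13, or T-cadherin, was at 0.16 ± 0.17 (0.786) and 0.31 above GFP in the stabilized array. The skeletal muscle list moved the same way as Cdh15, with 13 of 13 genes higher in the knockdown (median 1.31) and 13 of 13 lower in the stabilized array (median -1.91). Of the muscle genes 0 passed the test in the knockdown, and the part of muscle in the Cdh15 value was not tested.

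Genes that act on cadherin turnover were lower in 11 of 12 measured cases in the knockdown (18 listed, median -0.17). Of these 0 passed the test and 1 was lower at an unadjusted p under 0.05. Over all genes, 46.7% were lower and 4.27% were lower at that p. The listed gene at that p was the tyrosine kinase Fer, which phosphorylates junction proteins, at -0.44 ± 0.17 (limma, adjusted p = 0.455). The small GTPases Arf6, Rab11a and Rab5a, which act in membrane traffic, were at -0.31 ± 0.14 (0.526), -0.34 ± 0.18 (0.584) and -0.24 ± 0.14 (0.602). In the pair 6 were higher and 6 lower, with Rab5a 0.54 above GFP and the phosphatase Ptpn1 0.64 below.

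The destruction complex of β-catenin showed no common direction in the knockdown, with 6 of 13 measured genes higher and 7 lower (20 listed). The median was -0.03, and 0.07 with median scaling. Of these genes 0 passed the test and 2 had an unadjusted p under 0.05, both lower. Over all genes, 46.7% were lower and 4.27% were lower at that p. The scaffold Apc, which read 6.54 and 6.55 in control and 6.23 and 5.99 in knockdown arrays, was at -0.44 ± 0.15 (limma, adjusted p = 0.413), and its last value was not detected. The kinase Csnk1d was at -0.51 ± 0.18 (0.411). Axin2, both a scaffold of the complex and a Wnt target, was at 0.34 ± 0.17 (0.565) and Dvl1, which relays the Wnt signal, at 0.32 ± 0.19 (0.619). In the stabilized array 10 of 13 were higher, against 54.3% of all genes (median 0.15, and 0.72 with median scaling), with Apc 0.92 and the kinase Gsk3b 0.56 above GFP.

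Nuclear partners of β-catenin had a median of -0.0036 in the knockdown (0.06 with median scaling), with 8 of 19 measured genes higher and 11 lower (24 listed). Of these 0 passed the test and 1 was lower at an unadjusted p under 0.05. Over all genes, 46.7% were lower and 4.27% were lower at that p. The corepressor Tle3 was at -0.49 ± 0.16 (limma, adjusted p = 0.396) and Ctbp2 at -0.37 ± 0.20 (0.586), while Tcf7l2 was at -0.24 ± 0.15 (0.633) and Tle4 at 0.19 ± 0.17 (0.739). In the stabilized array 14 of 19 were higher, against 54.3% of all genes, with a median of 0.21 that was 0.82 with median scaling, where the median of all probes was 0.57. The TCF factor Tcf7l1 stood 1.07 and the coactivator Crebbp 0.95 above GFP.

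A list of regulators of Cdh1 transcription and mesenchymal genes, which mixes repressors of Cdh1 with epithelial factors, was lower in 13 of 17 measured cases in the knockdown. Its median was -0.10 (20 listed), with 0 past the test and 3 lower at an unadjusted p under 0.05. Over all genes, 46.7% were lower and 4.27% were lower at that p. Grhl3, an epidermal factor of barrier formation and wound repair, read 8.49 and 8.23 in control and 7.35 and 7.48 in knockdown arrays (-0.95 ± 0.16; limma, adjusted p = 0.179). The stabilized array stood 0.76 above GFP for Grhl3. Snai2, a repressor of Cdh1, was at -0.36 ± 0.14 (0.455). The epithelial factor Grhl2 was at -0.35 ± 0.16 (0.531). Elf3, another epithelial factor, was not detected in the knockdown and was at least 1.24-fold lower (limma, adjusted p = 0.374). In the pair 9 were higher and 8 lower, with Zeb1, a repressor of Cdh1, 0.99 above GFP. The other listed Snai and Zeb genes, compared after their values were seen, were split. Snai2 stood 0.33 above GFP, whereas Snai1, Snai3 and Zeb2 stood 0.55, 0.12 and 0.11 below.

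**Figure D4:**
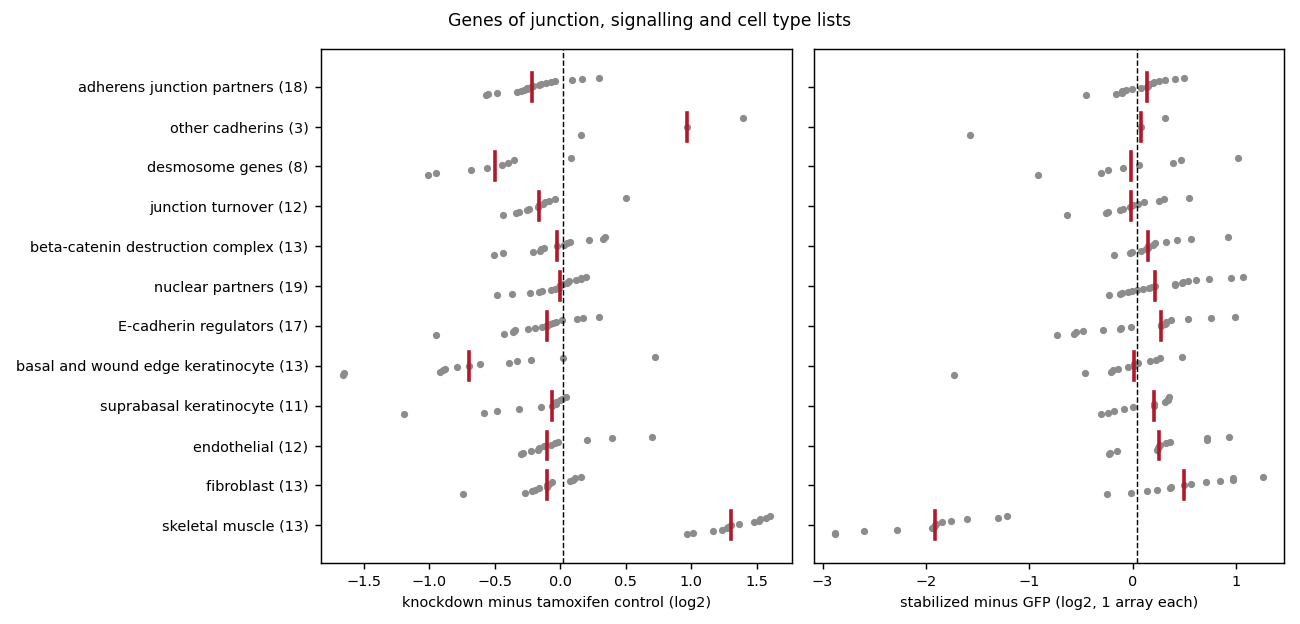
Differences (log2) of the measured genes of 12 lists in the knockdown (left, 2 arrays per group) and in the stabilized array against GFP (right, 1 array each), with 1 grey point per gene, a red bar at the list median, a dashed line at the median of all 10266 genes and the number of genes in parentheses. Desmosome (-0.50) and basal keratinocyte (-0.70) medians lie left of the line in the knockdown, and skeletal muscle lies right (1.31).

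Levels of cell type markers also differed between the arrays, and in whole wounds fewer cells of a type and less RNA per cell cannot be told apart. Markers of basal and wound edge keratinocytes (13 of 15 measured, all detected on every array) were lower in 11 of 13 cases in the knockdown, with a median of -0.70, 0 past the test and 8 lower at an unadjusted p under 0.05, against 4.27% of all genes. Their mean level, relative to the mean of the 6 arrays, was 0.22 and 0.17 in the controls, -0.49 and -0.40 in the knockdown, 0.31 with GFP and 0.19 with stabilized β-catenin. Jup, 7 of 8 desmosome genes and 11 of 13 keratinocyte markers were lower in the knockdown, whereas Cdh1 overlapped between the groups. The part of keratinocytes in the Jup and desmosome values was not tested. In the stabilized array 7 of the 13 markers were above GFP and 6 below, with a median of 0.01, and Krt15, a keratin of basal and follicle stem cells named after its values were seen, stood 1.73 below GFP and at 0.72 ± 0.34 in the knockdown (limma, adjusted p = 0.542). Krt14, the keratin of the basal layer, was at 0.02 ± 0.15 in the knockdown, whereas the wound keratins Krt16 and Krt17 were at -0.88 ± 0.21 and -0.61 ± 0.14 (limma, adjusted p = 0.243 and 0.232). Suprabasal markers (11 of 12 measured) were lower in 9 of 11 cases in the knockdown, against 46.7% of all genes. Their median was -0.07 (0.01 with median scaling). Of these markers 0 passed the test and 3 were lower at an unadjusted p under 0.05, against 4.27% of all genes. The brightest were near no difference, with Krt10 at 0.01 ± 0.14, Krtdap at 0.04 ± 0.17 and Lor at -0.03 ± 0.17.

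Endothelial markers (12 of 12 measured) had a mean level of -0.14 and -0.11 in the controls, -0.21 and -0.05 in the knockdown, 0.11 with GFP and 0.39 with stabilized β-catenin. Like Cdh5 they were highest in the stabilized array, but the knockdown arrays lay on either side of the controls. Emcn, a surface sialomucin of venous and capillary endothelium, was at -0.28 ± 0.14 in the knockdown and 0.32 above GFP, Esam at -0.02 ± 0.17 and 0.24 above, and Egfl7 at 0.20 ± 0.14 and 0.22 below. Fibroblast markers (13 of 13 measured) had mean levels of -0.02 and -0.0029 in the controls, -0.00084 and -0.25 in the knockdown, -0.12 with GFP and 0.39 with stabilized β-catenin. Collagen Col1a1, the proteoglycan Dcn and Lum stood 0.71, 0.13 and 0.97 above GFP in the stabilized array. The part of these cell types in the catenin and cadherin values was not tested.

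The remaining cell types gave other orders of arrays. Lymphocyte markers (5 of 10 measured) were higher in the knockdown in 5 of 5 cases (median 1.10), with Cd3g at 1.18 ± 0.14. Schwann cell markers (4 of 8 measured) were higher there in 4 of 4 (median 1.37), with Sox10 at 1.59 ± 0.25. In either list 0 genes passed after adjustment over all probes (limma, smallest adjusted p = 0.176 in each). Of all genes 46.7% were lower in the knockdown. In the stabilized array Schwann cell markers were also above GFP in 4 of 4 cases (median 1.23). Lymphocyte markers were above GFP in 1 of 5 (median -0.29), against 54.3% of all genes. Hair follicle markers (8 of 13 measured) had a mean level of 2.86 in control replicate 2, against -1.19 to 0.34 on the other arrays, with Krt27 at 14.18 there. Cdh1, Cdh3 and the brighter Ctnnb1 probes were also higher in control replicate 2 than in replicate 1. So was every other detected probe of the set, including both Cdh5 probes, except Ctnna1 and Ctnnb1 probe 3. The difference was only 0.02 for Jup and 0.08 and 0.07 for the Cdh11 probes. The share of all probes that were higher in control replicate 2 was not counted, so this is not a trait of the set. The part of hair follicle tissue in these values was not tested. Neutrophil markers (10 of 10 measured) were lower in 9 of 10 cases in the stabilized array (median -1.61), where 54.3% of all genes were higher, with S100a9 1.06 below GFP. Macrophage markers (9 of 10 measured) had a median of 0.03 in the knockdown and 0.49 in the pair, with Mrc1 1.23 above and Cd14 1.63 below GFP.

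The genes with the most similar profiles over the 6 arrays were found by the root mean square difference between centred log2 values, among 8690 genes detected on all arrays (8691 for Cdh11). For Cdh5 these were Pkd1 (0.019), Sntb2 (0.039), Pi4kb (0.055) and Fbln1 (0.070). Cdh1 was nearest to Bok (0.080), Memo1 (0.094), Myo18a (0.095) and Coq4 (0.098), and Cdh11 to Tsc22d1 (0.092), Pik3ip1 (0.13), Gulp1 (0.14) and Ift74 (0.15). With 6 arrays and this many genes, close profiles occur readily, and the distances are given as a description. None was sought for the brightest Ctnnb1 probe, whose SD over the arrays was 0.21, under the minimum of 0.3.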

How the data were processed

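Illumina bead arrays of 1 colour measured total RNA of 6 wounds. The table deposited by the authors gives a bead intensity per probe, with no normalization between arrays, and a detection p-value, per the file headers. The authors also deposited normalized log2 values, which differed from those computed here by at most 0.0916. Per the submitters' processing notes, they used R 2.14 and limma. Scanner, settings, slide and scan day are not given in the sources used here, so no batch was tested.

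With limma 3.58.1 in R 4.3.3, intensities were background-corrected by the normal-exponential model from the detection p-values, an offset of 16 was added, and log2 values were quantile-normalized (neqc). Quantile normalization removes a shift shared by most genes, and the offset shrinks differences of dim probes. Probes with a detection p-value under 0.01 on at least 2 arrays were kept. Knockdown and control were compared by lmFit and eBayes over the means of 4 groups (2 residual and 3.23 prior degrees of freedom), two-sided, with Benjamini-Hochberg adjustment over 17410 probes at a threshold of 0.05. A trend was fitted likewise. The adenovirus pair has 1 array per group and no test. "At least" folds use the lowest detected signal of the dim array. The fits were tested on simulated data.

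Symbols came from the platform annotation, updated by Entrez number through RefSeq. Of 45281 probes 34885 had 1 gene, 18 several, and 10378 were not listed. Members and the 17 lists were chosen with earlier results of these data known. Named genes were, of each junction or signalling list, the 4 with the smallest p in the knockdown and the 2 with the largest difference in the pair among those detected on both arrays, and of each cell type list the 3 brightest, with the most similar profiles of 4 members. For some cell types fewer are printed. Alternatives covered background, offset, scaling, filter, the deposited log2 values, 1 probe per gene, left-out arrays, the 4 tamoxifen arrays alone and the replicate number as a block.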

Additional observations from a re-analysis of the deposited data

How the results depend on the processing

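None of 736 values of named probes under an alternative passed the threshold in the knockdown comparison or the trend, and 20 changed sign, 16 of them with an array left out. With median scaling the Cdh3 probe 2 difference in the knockdown was 0.0044 and the Cdh1 slope 0.028. The slope of Cdh11 probe 2 was -0.019 with an offset of 50 and -0.020 without background correction. With 1 array left out in turn, the knockdown difference lay between -0.29 and 0.020 for Ctnnb1 probe 1, -0.10 and 0.19 for probe 3 and -0.16 and 0.52 for probe 4. It lay between -0.47 and 0.24 for Cdh1, -0.43 and 0.33 for Cdh3 probe 2, -0.60 and 0.35 for Cdh11 probe 1 and -0.34 and 1.04 for probe 2. Slopes lay between -0.043 and 0.13 for Ctnnb1 probe 1, -0.38 and 0.12 for Cdh1 and -0.35 and 0.55 for Cdh11 probe 2. Jup stayed between -0.60 and -0.56, with adjusted p from 0.305 to 0.829. Over all probes, 0 to 2 passed in the knockdown with an array left out, the 2 without tamoxifen control replicate 1. Probes at least 2-fold apart in the adenovirus pair numbered 1456, and 930 with an offset of 50, 594 without background correction and 3148 with median scaling. They numbered 794 among probes detected on all arrays and 757 with 1 probe per gene, where fewer features were counted. Median scaling also took 3 of the 15 probes past 2-fold and passed 179 probes in the trend, and the cause was not tested. The number of probes at an unadjusted p under 0.05 in the knockdown was 1856, and 3532 without the filter, 1093 with 1 probe per gene and 1039 without knockdown replicate 2.

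The replicate numbers were not said to mark shared animals or days. Deviations of same-numbered control and knockdown arrays correlated with r = 0.0915 over 17410 probes. With the replicate number as a block 0 probes passed in the knockdown and 0 in the trend, Jup was at -0.58 (limma, adjusted p = 0.223), and 2288 probes had an unadjusted p under 0.05. Precision was limited by 2 arrays per group, by 1 per adenovirus group, and by the dim signal of Jup and Cdh11.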
